A study of Arabidopsis thaliana with 12 samples.

Results

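LBD16-GR was activated in Arabidopsis thaliana roots while protein synthesis was blocked, and the genes that changed within 4 h are described here. The comparison uses 6 of the 12 arrays of the study, 3 from roots given DEX+CHX and 3 from roots given CHX, chosen by the treatment named in the sample titles. All arrays came from the line 35S::LBD16:GR in arf7-2 arf19-5, in which LBD16 is fused to the steroid-binding part of the glucocorticoid receptor and driven by the CaMV 35S promoter. Roots of 5-day-old seedlings were treated for 4 h. The DEX+CHX roots received 2 µM dexamethasone (DEX) and 10 µM cycloheximide (CHX), and the CHX roots received 10 µM CHX without DEX. The remaining 6 arrays came from the same line given 2 µM DEX or mock solution, 3 arrays each, and share no array with the comparison under CHX. Each treatment had 3 separate mRNA sets.

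LBD16 is a transcription factor of the plant-specific LBD family, named after the boundaries of lateral organs. It acts downstream of the auxin response factors ARF7 and ARF19 at the start of lateral root formation, when pericycle founder cells divide asymmetrically. A GR fusion stays in the cytoplasm until DEX binds it and then enters the nucleus. CHX blocks translation, so proteins encoded by transcripts induced after DEX cannot build up, and a change that appears under CHX is a candidate primary response to the fusion. The line carries loss-of-function alleles of both ARFs, the promoter is active in most root cells, the samples were whole roots, and 1 line was used. No array of a root without the fusion was analysed, so an effect of DEX itself cannot be told apart from an effect of the fusion. In whole roots, fewer cells of a type and less RNA per cell cannot be told apart either.

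The deposited values are on a log2 scale, on which a difference of 1 is a 2-fold change. Of 38408 rows, 16722 are paired with 1 gene and give 16550 genes, of which 89.2% are named by their locus alone. Across the 6 arrays the median over these genes was 5.98 to 6.03. The correlation across genes was 0.992 to 0.994 between arrays of 1 treatment and 0.991 to 0.994 between arrays of the 2 treatments. LBD16 itself read 9.58, 9.44 and 9.52 in DEX+CHX roots, against 9.67, 9.64 and 9.51 in CHX roots. The ranges overlapped, and the difference of -0.09 had an exact two-sided permutation p of 0.3, where 0.1 is the smallest that 3 against 3 arrays allow. The values are of transcript, native and fusion not told apart, these values say nothing of where the protein was. Of 36 root cell type markers searched for by name, the root hair gene EXPA7 was the 1 found among the genes tested. It read 7.45, 7.42 and 7.59 in DEX+CHX roots, against 7.70, 7.75 and 7.80 in CHX roots (limma adjusted p = 0.793). The shoot genes RCA and PORB differed by 0.00 and 0.03.

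When translation was blocked, far more genes were higher with DEX than were lower. With limma and a Benjamini-Hochberg adjusted p below 0.05, 91 genes were higher in DEX+CHX than in CHX roots, which is 0.55% of the genes tested. Another 7 genes, or 0.0423%, were lower. The changed genes together made up 0.592%. Among the higher genes, 13 rose at least 4-fold, 50 rose at least 2-fold, and 41 rose by less. Their median log2 change was 1.04, with a range of 0.51 to 4.39, against a median of -0.01 over all genes tested. The 7 lower genes had a median of -0.60, and 1 of them fell at least 2-fold.

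In every one of the 98 changed genes, the 3 DEX+CHX arrays did not overlap the 3 CHX arrays. All 3 same-numbered array pairs therefore differed in the same direction. These same arrays entered the test that called the genes, so the separation describes the calls and is no further evidence for them. Over all genes, 5.12% had every DEX+CHX array above every CHX array and 4.57% had every one below. The higher genes had a median level of 7.26 in DEX+CHX roots and 5.84 in CHX roots, where the median of all genes was 6.01 in DEX+CHX roots and about the same in CHX roots. With DEX, 7 of the 91 were still among readings as low as the dimmest 30% of genes, against 19 in CHX roots, where no detection floor is given. The plot of change against level shows how few genes left the central band.

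**Figure D1:**
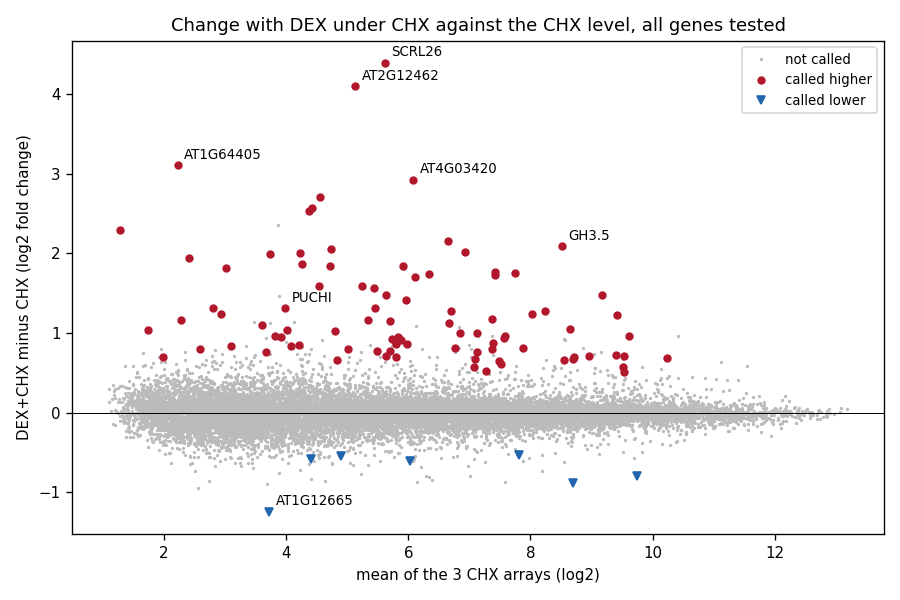
Log2 change, DEX+CHX minus CHX (y axis), against the mean log2 level in CHX roots (x axis) for 16550 genes, 3 arrays per treatment. Called genes are coloured by direction. Named are SCRL26, AT2G12462, AT1G64405, AT4G03420, WES1 (as GH3.5), PUCHI and AT1G12665, a choice that does not follow the size of the change alone. The 91 higher genes have CHX levels of 1.28 to 10.2 and reach a change of 4.39, whereas the 7 lower genes stop at -1.24.

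The strongest rise belonged to a secreted peptide gene. SCRL26 encodes a small cysteine-rich protein related to the SCR ligand of Brassica self-incompatibility. It read 10.07, 10.17 and 9.77 in DEX+CHX roots, against 5.07, 5.57 and 6.21 in CHX roots. Every DEX+CHX array lay more than 3 log2 units above every CHX array, and the change was 4.39 ± 0.25 (SE, 20.9-fold, adjusted p = 3.37e-06). AT2G12462 followed, with 9.33, 8.96 and 9.39 in DEX+CHX roots, against 5.34, 4.93 and 5.12 in CHX roots. That is a 17.1-fold difference (4.09 ± 0.19, adjusted p = 1.84e-06), many times the SD of 0.23 among DEX+CHX arrays and 0.21 among CHX arrays. AT1G64405 had 5.12, 5.32 and 5.54 in DEX+CHX roots, against 1.95, 2.32 and 2.39 in CHX roots. It lay in the dimmest range without DEX and above it with DEX, and rose 8.60-fold (adjusted p = 2.61e-06). AT4G03420 read 8.85, 9.14 and 9.01 in DEX+CHX roots, against 5.88, 6.24 and 6.13 in CHX roots, a 7.55-fold rise (adjusted p = 3.37e-06).

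Other large rises were seen in genes known by locus alone, to which no function is given here. AT5G55800 rose 6.51-fold, to 7.48, 7.37 and 6.94 in DEX+CHX roots, against 4.13, 4.85 and 4.69 in CHX roots. AT3G16660 rose 5.78-fold, to 6.67, 7.30 and 6.74 in DEX+CHX roots, against 4.29, 4.53 and 4.31 in CHX roots. The groups did not overlap in either gene. AT1G03820 was among the dimmest genes on all 6 arrays, with 3.80, 3.21 and 3.70 in DEX+CHX roots and 1.33, 1.28 and 1.24 in CHX roots. AT2G43220, AT5G01760 and AT4G00165 rose 3.58-fold, 3.41-fold and 3.37-fold. The call of AT4G00165 was lost without DEX+CHX replicate 2 or CHX replicate 3, with an adjusted p of up to 0.0628.

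Changes of moderate size with little scatter were seen in AT3G54740 and AT5G43150. AT3G54740 read 7.84, 7.81 and 7.76 in DEX+CHX roots, against 6.14, 6.04 and 6.14 in CHX roots (1.70 ± 0.09, adjusted p = 3.37e-06). AT5G43150 read 8.01, 7.96 and 7.96 in DEX+CHX roots, against 6.75, 6.81 and 6.57 in CHX roots (1.27 ± 0.09, adjusted p = 2.22e-05). In both, the gap between the groups was several times the range within either. AT3G48346 and AT1G23150 rose by log2 changes of 1.58 and 1.48 (adjusted p = 0.00244 and 0.000434), with CHX arrays of AT3G48346 spread from 4.19 to 5.02. Without replicate 3 of every treatment AT3G48346 and AT1G23150 had adjusted p-values of 0.161 and 0.0599. Of the 91 higher genes, 83 (91.2%) are named by locus alone, a share close to the 89.2% of all genes tested. This share is thus not particular to the higher genes, and the names used here say nothing of what most genes tested do.

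**Figure D2:**
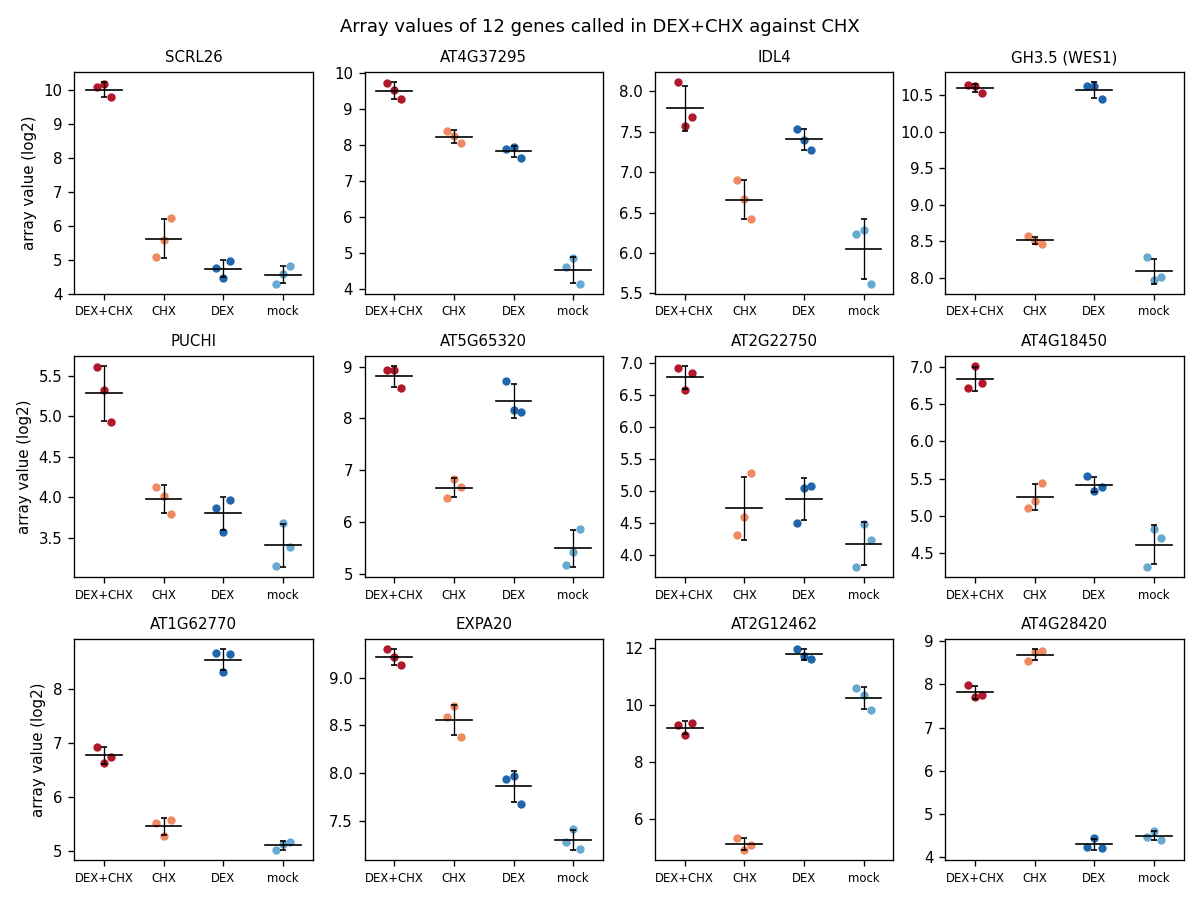
Log2 level (y axis) of 12 genes on every array, by treatment (x axis); points are arrays, horizontal lines are means and bars are the SD over 3 arrays. In the 11 genes shown that rose, WES1 (titled GH3.5) among them, the DEX+CHX points lie above all CHX points, and in AT4G28420 they lie below; each panel has its own y axis, which does not start at 0.

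Besides SCRL26, the higher genes AT4G37295 and IDL4 encode precursors of secreted signalling peptides. Whether other higher genes named by locus alone do so was not examined. AT4G37295 encodes a PIP-type peptide, a family of short secreted peptides perceived by receptor-like kinases. It read 9.74, 9.52 and 9.28 in DEX+CHX roots, against 8.40, 8.25 and 8.05 in CHX roots, and rose 2.42-fold (1.28 ± 0.18, adjusted p = 0.00583). IDL4 encodes a peptide related to IDA, which controls cell separation during organ shedding and around emerging lateral roots. IDL4 had 8.11, 7.57 and 7.68 in DEX+CHX roots, against 6.90, 6.66 and 6.42 in CHX roots (1.13 ± 0.20, adjusted p = 0.024). Its call was lost without DEX+CHX replicate 1 or 3 or without CHX replicate 2 or 3, with an adjusted p of up to 0.125. The other 3 measured genes of the PIP-type list, AT4G37290, AT2G23270 and AT4G28460, differed by 0.14, 0.06 and 0.00 and were not called. Among 136 measured genes of the list of other small secreted peptides, which does not hold IDL4, SCRL26 was the 1 called, and the median change of that list was -0.00. CLE16 (0.61, adjusted p = 0.174) and LCR31 (0.61, adjusted p = 0.208) came next in that list and did not pass.

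Transcription factor genes formed a further group among the higher genes, put together here after their values were seen. AT5G65320 encodes a basic helix-loop-helix (bHLH) protein. It read 8.93, 8.94 and 8.58 in DEX+CHX roots, against 6.47, 6.84 and 6.67 in CHX roots, and rose 4.46-fold (2.16 ± 0.20, adjusted p = 0.000238). AT2G22750, another bHLH gene, read 6.92, 6.58 and 6.85 in DEX+CHX roots, against 4.32, 4.60 and 5.28 in CHX roots (2.05 ± 0.25, adjusted p = 0.00195). The CHX arrays were the more scattered here, yet the highest of them stayed below the lowest DEX+CHX array. The list of bHLH genes, which holds those with a bHLH symbol or synonym and neither of these 2, had 9 measured members, no call and a median of 0.05.

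PUCHI encodes an AP2-type factor that acts in lateral root primordia and restricts cell divisions there. It was the 1 gene called among the 9 measured lateral root regulators, where the list matched 31 genes in RefSeq. PUCHI read 5.61, 5.33 and 4.93 in DEX+CHX roots, against 4.13, 4.01 and 3.80 in CHX roots (1.31 ± 0.19, adjusted p = 0.00614). All 3 DEX+CHX arrays were higher, and the call was lost when replicate 3 of every treatment was left out (adjusted p = 0.0904). The median of the lateral root list was 0.01, and none of its other members passed. LBD29, which shares ARF7 and ARF19 as activators with LBD16, differed by 0.09, and CR4, the receptor kinase also called ACR4, by -0.15. The list's RALFL34, AUR1, AUR2 and LHW differed by 0.20, -0.02, 0.01 and -0.04.

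AT4G18450, an AP2 gene of the ethylene response factor type, read 6.71, 7.02 and 6.78 in DEX+CHX roots, against 5.11, 5.19 and 5.44 in CHX roots (1.59 ± 0.15, adjusted p = 0.000184). AT2G33350 carries a CCT motif, a domain of CONSTANS-like regulators. It read 4.45, 4.23 and 4.38 in DEX+CHX roots, against 2.22, 2.42 and 2.60 in CHX roots (1.94 ± 0.18, adjusted p = 0.00017). A second CCT gene, AT5G59990, was 1.81-fold higher (adjusted p = 0.0303, or 0.0543 where the replicate number entered as a block). The zinc finger gene AT3G10470 was 1.93-fold higher (adjusted p = 0.0239). Both of these smaller calls were lost without any array but DEX+CHX replicate 3, with adjusted p-values of up to 0.15 and 0.13.

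Of the auxin functions, conjugation was represented by 1 higher gene. WES1, also known as GH3.5, encodes an enzyme that joins auxin and salicylic acid to amino acids and so lowers free auxin. It read 10.64, 10.62 and 10.53 in DEX+CHX roots, against 8.57, 8.50 and 8.47 in CHX roots. The arrays of each treatment lay close together (SD 0.06 in DEX+CHX and 0.05 in CHX roots), and the difference was 4.25-fold (2.09 ± 0.10, adjusted p = 1.84e-06). Of the 6 measured GH3 genes, out of 11 matched in RefSeq, WES1 was the 1 called, and the list's median was 0.35. GH3.3 read 9.80, 9.40 and 9.24 in DEX+CHX roots, against 8.86, 8.39 and 8.45 in CHX roots. The 2 groups did not overlap, but the difference of 0.92 ± 0.23 missed the threshold (adjusted p = 0.229). It passed with the replicate block (0.0445). GH3.1 differed by 0.58 (adjusted p = 0.278), and GH3.17, GH3.9 and GH3.4 by 0.12, -0.05 and -0.01.

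No other measured gene of the auxin lists passed the test. Aux/IAA genes encode repressors of auxin response and include rapid auxin targets. Among the 8 measured, of 37 that the list matched in RefSeq, the median was 0.04. IAA18 had the largest difference (0.54, adjusted p = 0.297). The 4 measured genes of auxin synthesis, of 25 matched, had a median of -0.14. The 2 of auxin transport, of 52 matched, differed by 0.08 and 0.13. None of the 3 measured LBD genes, of 42 matched, was called, LOB being highest at 0.21. Listed genes outside the genes tested were not examined. No gene with an ARF or SAUR symbol or synonym was among the genes tested. Of 2 measured type-A response regulators, which act as cytokinin-induced brakes on cytokinin signalling, RR16 differed by 1.01 ± 0.21 and lay just outside the threshold (adjusted p = 0.07).

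Genes of several cell wall families were raised, with modest changes. The group was assembled after the values were seen and may not be complete. AT1G62770 belongs to the family of pectin methylesterase inhibitors, which govern how stiff the pectin of the wall becomes. It read 6.93, 6.62 and 6.75 in DEX+CHX roots, against 5.53, 5.27 and 5.57 in CHX roots (2.48-fold, adjusted p = 0.000287). AT3G59850, a gene of the polygalacturonase type, was 1.94-fold higher (adjusted p = 0.00177), and the pectate lyase gene AT1G67750 was 1.88-fold higher (adjusted p = 0.0122). Both enzyme types cut pectin chains. The call of AT1G67750 was lost without DEX+CHX replicate 1 or 2 or CHX replicate 1 or 3, with an adjusted p of up to 0.0733. EXPA20 encodes an expansin, a protein that loosens cell walls under acid conditions, and read 9.30, 9.22 and 9.13 in DEX+CHX roots, against 8.59, 8.70 and 8.38 in CHX roots. Its rise was 1.58-fold (adjusted p = 0.0239), and the call held without CHX replicate 2 and failed without any other of the 6 arrays (adjusted p up to 0.134). A second probe set of EXPA20 gave 0.20. It was the 1 call among 24 measured expansins, whose median was 0.01. None of 11 measured XTH, 7 peroxidase and 4 listed pectin enzyme genes was called, where the lists matched 44, 31 and 38 genes in RefSeq.

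Among the higher genes with high readings were AT2G43590 and AT3G22060. AT2G43590, of the chitinase family, reached 11.17, 10.44 and 10.37 in DEX+CHX roots, against 9.09, 9.35 and 9.10 in CHX roots (2.79-fold, adjusted p = 0.00387). AT3G22060 encodes a secreted protein with the cysteine-rich domain found in a large group of receptor kinases. It had 11.14, 10.81 and 10.83 in DEX+CHX roots, against 10.35, 10.19 and 10.19 in CHX roots, a 1.60-fold difference (adjusted p = 0.0319). This small call was lost without any single one of the 6 arrays, with an adjusted p of up to 0.15.

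Several protein kinase genes were higher, a group assembled after the values were seen. How many kinase genes were tested was not counted, so no share called can be given. AT1G77280 read 8.87, 8.85 and 9.12 in DEX+CHX roots, against 7.01, 6.97 and 6.80 in CHX roots (4.05-fold, adjusted p = 3.48e-06). AT3G61160 belongs to the shaggy-like kinases, relatives of the kinase that restrains brassinosteroid signalling. It read 7.81, 7.83 and 7.94 in DEX+CHX roots, against 6.81, 6.95 and 6.80 in CHX roots (2.01-fold, adjusted p = 0.000127). AT3G01490 and AT4G34500 were 1.94-fold and 1.62-fold higher (adjusted p = 0.0139 and 0.00329). The call of AT3G01490 was lost without DEX+CHX replicate 2 or 3 or CHX replicate 2 or 3 (up to 0.0794). The receptor-like kinases AT4G27300, with an S-locus lectin domain, and AT1G68400, with leucine-rich repeats, were 2.14-fold and 1.48-fold higher. Their adjusted p-values of 0.0435 and 0.0321 lay near the threshold and reached 0.194 and 0.168 when single arrays were left out. The first call held without DEX+CHX replicate 1 and the second without CHX replicate 1, and each was lost without any other array. With the replicate block AT4G27300 had 0.0786.

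Genes of transport and metabolism were also among the higher genes, put together here after their values were seen. SWEET8, a sugar exporter best known from pollen, read 6.72, 5.92 and 6.05 in DEX+CHX roots, against 4.03, 4.40 and 4.24 in CHX roots (4.01-fold, adjusted p = 0.000287). MT1B, a metallothionein that binds metal ions, averaged 6.13 ± 0.20 in DEX+CHX roots and 4.26 ± 0.41 in CHX roots (SD, n = 3 arrays each, 3.65-fold, limma adjusted p = 0.0018), with no overlap. Without replicate 3 of every treatment, these calls had adjusted p-values of 0.0599 and 0.117. AT3G60290, a 2-oxoglutarate-dependent oxygenase gene, was 3.58-fold higher (adjusted p = 0.00847), with 1 low CHX array at 5.24, and its call was lost without DEX+CHX replicate 1 (0.0561). AT5G55050, of the GDSL lipases, was 2.37-fold higher (adjusted p = 0.0207, and 0.106 without CHX replicate 2 or CHX replicate 3). The MATE transporter gene AT2G04090 was 1.65-fold higher (adjusted p = 0.0239, or 0.0552 with the replicate block), and the glycosyltransferase gene AT3G46720 was 1.69-fold higher (adjusted p = 0.00993). The first of these held without CHX replicate 1 and was lost without any other array (up to 0.123), and the second was lost without DEX+CHX replicate 2 or CHX replicate 3 (up to 0.0615).

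Lists of metabolic and housekeeping genes, built on symbols and synonyms and so measured in part, had medians close to that of all genes and do not hold the higher genes known by locus alone, such as AT2G04090 and AT3G46720, nor SWEET8. There was no call among the listed 47 measured UGT, 26 P450, 13 GST, 16 ubiquitin ligase, 14 transporter and 10 photosynthesis genes, and their medians ran from -0.08 to 0.05. Histones (4 measured), heat shock genes (3), kinesins (2) and WRKY factors (7) had none either. The 1 measured cell cycle gene, 1 MYB gene, 1 NAC gene and 1 homeobox gene were not called. The lists of AP2/ERF genes, receptor kinases and ribosomal proteins had no measured member. This reflects the matching by name, as the higher genes PUCHI, AT4G18450, AT4G27300 and AT1G68400 were tested but are not in these lists.

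The genes that were lower were few and changed little. AT1G12665 fell the most, to 2.56, 2.55 and 2.33 in DEX+CHX roots, against 3.46, 4.11 and 3.60 in CHX roots (-1.24 ± 0.18, adjusted p = 0.00785). All 6 readings lie in the dim range. AT4G28420, related to tyrosine aminotransferases, read 7.98, 7.70 and 7.76 in DEX+CHX roots, against 8.54, 8.76 and 8.78 in CHX roots (-0.88 ± 0.12, adjusted p = 0.00329). AT5G10410, of the ENTH type that binds membrane lipids during vesicle budding, read 9.09, 8.92 and 8.83 in DEX+CHX roots, against 9.69, 9.92 and 9.62 in CHX roots (-0.80, adjusted p = 0.0123). Its call was lost without DEX+CHX replicate 2 or 3 or CHX replicate 2 (up to 0.0682).

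The other 4 lower genes fell by less. They were the carboxylesterase gene AT5G06570 (-0.60, adjusted p = 0.0459), the subtilase gene AT5G45650 (-0.58, 0.0343), AT3G54410 (-0.54, 0.0425) and AT5G24320, which encodes a WD40 repeat protein (-0.52, 0.0353). The calls of AT5G06570 and AT5G24320 were lost without any array but CHX replicate 3, and those of AT5G45650 and AT3G54410 without any of the 6. The first 3 had adjusted p-values of 0.075, 0.0543 and 0.0634 with the replicate block. AT4G28420 and AT1G12665 were the 2 of the 7 that stayed below the threshold without each array in turn.

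The DEX and mock arrays gave a separate measurement of the same genes, with translation running. Of the 91 genes that were higher under CHX, 66 (72.5%) had all 3 DEX arrays above all 3 mock arrays, where the share over all genes was 9.69%, and none had all DEX arrays below. The background for the opposite order was 5.49%. With limma, 47 of the 91 were also called higher in DEX than in mock roots, where 1.11% of all genes were higher and 0.411% lower. With each comparison fitted on its own 6 arrays, 58 genes were higher under CHX and 23 of these in both comparisons. In that fit of DEX against mock, 130 of the 16550 genes tested were called in either direction. Of the 7 lower genes, 2 had all DEX arrays below all mock arrays, AT5G06570 (-0.92) and AT5G10410 (-0.46).

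WES1 gave like readings in both settings, with 10.63, 10.63 and 10.45 in DEX roots, against 8.28, 7.97 and 8.02 in mock roots. That difference of 2.48 stood beside 2.09 under CHX. The bHLH gene AT5G65320 read 8.72, 8.17 and 8.12 in DEX roots, against 5.17, 5.42 and 5.87 in mock roots, and the difference of 2.85 stood beside 2.16. AT1G64405 and AT5G55800 gave 2.71 and 2.84 without CHX, beside 3.10 and 2.70 with it. For none of these 4 genes was the difference between the 2 effects called.

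The remaining 44 genes that were higher under CHX were not called in DEX against mock. Of these, 38 had a positive difference there and 19 had arrays that did not overlap, and their median was 0.28 without CHX and 1.15 with it. Missing the threshold in one comparison does not show that the effects differed, and a test of the difference passed for 5 of the 44. The 91 genes were chosen by their effect under CHX, so nothing is read from how many had the larger effect there. The test called 6 of the 91 larger with CHX and 3 smaller. Over all genes tested, 0.0423% were called larger with CHX, 0.0846% smaller, and 0.127% in either direction. None of the 7 lower genes was called for the difference.

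SCRL26 is the extreme case of a response seen with CHX and not detected without it. It read 4.76, 4.47 and 4.96 in DEX roots, against 4.29, 4.57 and 4.80 in mock roots, and these ranges overlapped. The effect was larger by 4.21 under CHX (adjusted p = 0.000403). AT2G12462 stood at another level altogether without CHX, with 11.98, 11.74 and 11.64 in DEX roots, against 10.60, 10.35 and 9.85 in mock roots. Its DEX+CHX roots thus stayed below the mock roots, while the DEX effect was larger by 2.57 under CHX (adjusted p = 0.00214). AT4G03420 and AT3G16660 also had larger effects under CHX, by 2.41 (0.00107) and 2.34 (0.00255). So did AT5G25970, a glycosyltransferase gene (1.87, 0.00365), and AT4G33170, which encodes a pentatricopeptide repeat protein (1.49, 0.0329).

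In the opposite direction stood 3 genes of secreted proteins. AT1G62770, the pectin methylesterase inhibitor gene, read 8.66, 8.31 and 8.64 in DEX roots, against 5.02, 5.14 and 5.17 in mock roots. Its change of 3.42 without CHX exceeded that of 1.31 with CHX, by a difference of -2.11 (adjusted p = 0.000403). The PIP-type peptide gene AT4G37295 read 7.89, 7.95 and 7.64 in DEX roots, against 4.61, 4.86 and 4.15 in mock roots. CHX roots without DEX already lay above these DEX readings, at 8.05 to 8.40, and the difference between effects was -2.01 (adjusted p = 0.0076). AT3G22060 read 10.66, 10.85 and 10.61 in DEX roots, against 7.89, 8.03 and 7.68 in mock roots, and its effect under CHX was smaller by -2.16 (adjusted p = 0.000403). In both AT4G37295 and AT3G22060 the CHX roots exceeded the mock roots by more than 2 log2 units.

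**Figure D3:**
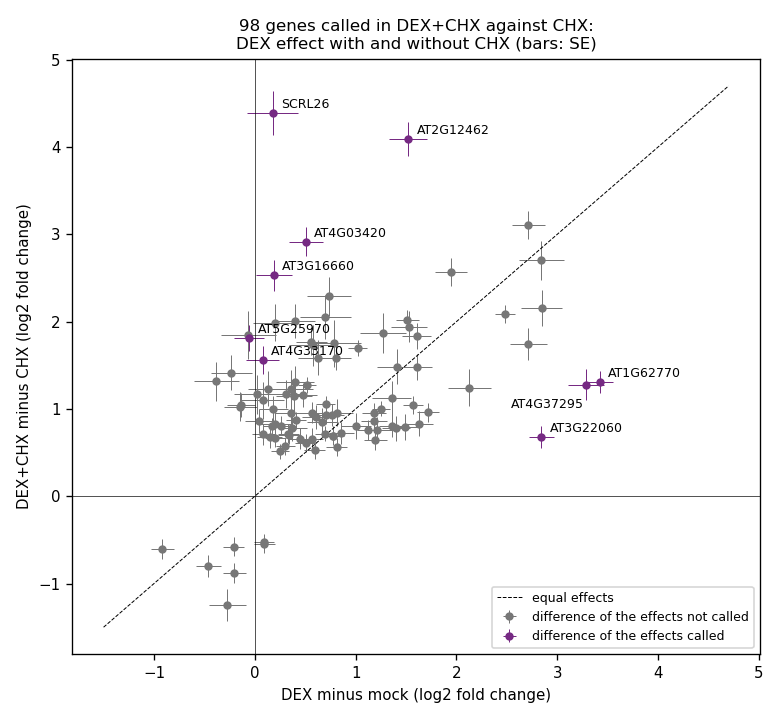
Log2 effect of DEX with CHX (DEX+CHX minus CHX, y axis) against that without CHX (DEX minus mock, x axis) for the 98 called genes; bars are SE and the dashed line marks equal effects. Genes whose effects were called different are drawn in purple, with SCRL26 far above the line and AT1G62770, AT4G37295 and AT3G22060 below it.

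Some of the higher genes lie next to each other on the chromosomes. In the gene order of RefSeq for TAIR10.1, 10304 pairs of adjacent protein-coding genes had both members tested, and in 7 of these pairs both were higher, 14 genes in all. Counted from the 78 higher genes with a tested neighbour, 14 of 116 neighbours (12.1%) were higher themselves, against 0.563% of all neighbours. The largest changes were those of AT3G57950 and AT3G57960, at 1.74 and 2.57. AT4G03450, which encodes an ankyrin repeat protein, differed by 1.99 and its neighbour AT4G03443 by 1.42. AT4G28150 and AT4G28160 differed by 1.73 and 1.16, and a second probe set of AT4G28160 gave 2.80.

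AT3G57950 had 8.26, 8.27 and 7.71 in DEX+CHX roots, against 6.48, 6.30 and 6.23 in CHX roots. AT3G57960 had 6.93, 7.27 and 6.78 in DEX+CHX roots, against 4.60, 4.21 and 4.45 in CHX roots. The pair also rose together without CHX, by 2.71 and 1.95. For AT4G03443 and AT4G03450 the DEX minus mock values were -0.23 and 0.20, and neither was called. The pair AT3G46800 and AT3G46810 differed by 0.96 and 0.93, and NTMC2T6.2, which encodes a membrane protein with a C2 domain, and AT3G14595 differed by 0.96 and 0.93.

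AT3G52700 and AT3G52710, whose gene models overlap, differed by 1.17 and 0.72 under CHX, and by 0.02 and 0.69 in DEX against mock roots. AT5G66590, of the CAP family that holds the PR-1 defence proteins, and AT5G66600 differed by 0.66 and 0.61. In these 2 pairs the calls of AT3G52700 and AT5G66600 were lost without any array but DEX+CHX replicate 3, with adjusted p-values of up to 0.232 and 0.116. That of AT5G66590 was lost without DEX+CHX replicate 1 or 2 or CHX replicate 1 or 2 (up to 0.151). AT5G66590 had 0.0535 with the replicate block. Whether probes of one gene of a pair also read its neighbour was not tested. Of the 102 neighbours that were not higher, 66 (64.7%) had a positive difference, against 48.1% of all genes, and their median was 0.05, against -0.01. The largest among them was AT2G22760 (1.08, adjusted p = 0.215), next to the bHLH gene AT2G22750.

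**Figure D4:**
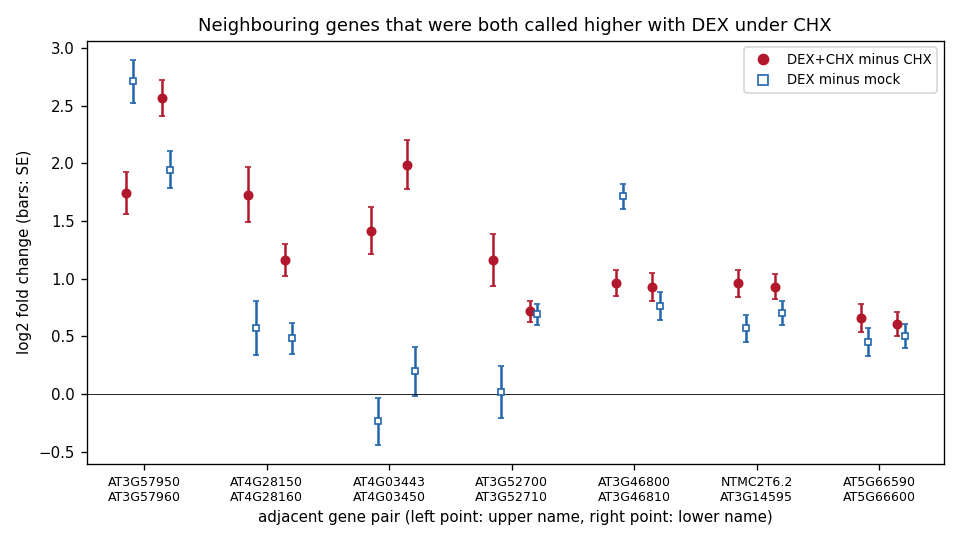
Log2 change of both genes in the 7 pairs of adjacent genes that were both higher; filled red points are DEX+CHX minus CHX, open blue squares are DEX minus mock, and bars are SE (3 arrays per treatment). The filled points lie above 0.5 throughout, while the open squares of AT3G52700, AT4G03443 and AT4G03450 lie between -0.23 and 0.20.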

How the data were processed

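Each of 12 RNA samples was measured on an Affymetrix array of its own. The authors worked with Affymetrix Expression Console 1.3, per the submitters' processing notes, and how values were summarized or normalized is not stated there. Deposited values, 0.426 to 13.98, were taken as log2 because they exceed the natural log of the largest 16-bit reading (11.09). Array number limits the precision. Rows were named through the platform annotation, in which 20927 rows are unnamed and 759 name several genes. Where a gene had several probe sets, the one of highest mean was taken, leaving out 172. RefSeq (TAIR10.1) names were found for 16411 genes and not for 139. Its gene positions gave the order of neighbours and the overlap of gene models. No sequences were used.

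R 4.3.3 with limma 3.58.1 fitted 1 mean per treatment to all 12 arrays. Tests from eBayes were two-sided, adjusted by Benjamini-Hochberg over 16550 genes and called below 0.05 with no fold minimum. Errors are standard errors of the fit. The script was tested on simulated data. Whether the mRNA sets came from separate cultures is not stated, so p-values measure the spread between these samples, which may be technical.

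The comparison, its members and the gene lists were chosen with earlier results of these data known. The naming rule takes all lower genes and the 30 largest rises whose arrays did not overlap. It adds LBD16, up to 4 members per list, and any measured member of the lateral root, GH3, LBD and PIP-type lists. Members of adjacent pairs and genes whose effects differed were named as groups after their values were seen. Other called genes were named by role, also after their values were seen. The name patterns of 5 lists (other small secreted peptides, AP2/ERF, ubiquitin ligases, histones, heat shock) were narrowed after the files were read, because they also caught unrelated names. Same-numbered arrays of CHX and DEX+CHX deviated together (correlation across genes 0.244, 0.157 and 0.332 for replicates 1, 2 and 3). Reading them as pairs rests on the data. The main fit, which gave the calls, left this pairing out, and the block entered as an alternative. No arrays held identical values. Alternatives were the block, quantile normalization, centring, leaving out the dimmest 30%, all rows, averaging probe sets, a variance trend with robust estimation, fits on the compared arrays alone, a minimum fold of 2, a threshold of 0.01, and leaving out single arrays or replicate 3 of every treatment.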

Additional observations from a re-analysis of the deposited data

Results flagged for a closer look

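For 9 of the genes higher in DEX+CHX than in CHX roots, the effect of DEX differed between roots with and without CHX by limma's test of the difference (adjusted p below 0.05). With CHX minus without, the log2 difference was 4.21 for SCRL26, 2.57 for AT2G12462, 2.41 for AT4G03420, 2.34 for AT3G16660, 1.87 for AT5G25970 and 1.49 for AT4G33170. It was -2.11 for AT1G62770, -2.01 for AT4G37295 and -2.16 for AT3G22060.

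Rows outside the genes tested also changed. Of 20927 rows with no gene name, 61 were called in DEX+CHX against CHX when all rows were tested together, 51 higher and 10 lower, which is 0.291%. Among rows with 1 gene, 70 were higher and 3 lower in that test, or 0.437%. The unnamed row with the largest change was higher by 3.14 under CHX and by 3.14 in DEX against mock. Rows with the same values under several identifiers are counted each.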

How the results depend on the processing

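No changed gene reversed its direction under any alternative. As their DEX+CHX and CHX arrays did not overlap, leaving out arrays could not have reversed any, so this is no further evidence for the calls. LBD16 differed by -0.14 to -0.05 without single arrays. The 98 changed genes (91 higher, 7 lower) became 61 (58, 3) with just the arrays compared, 51 (50, 1) with a fold minimum of 2 and 55 (53, 2) at an adjusted p of 0.01. Testing all rows gave 13 lower. Without single arrays they were 62 to 83, 59 to 80 higher and 2 to 5 lower. The count was lowest without DEX+CHX replicate 1 (62), DEX+CHX replicate 2 (64) or CHX replicate 3 (64). The lower genes were 3 without DEX+CHX replicate 1, DEX+CHX replicate 3 or CHX replicate 2, and 2 without DEX+CHX replicate 2. Without replicate 3 of every treatment 27 genes were called, all higher, and 0 lower, with 2 arrays per treatment. With the replicate block 105 were called (99 higher, 6 lower): 12 calls were lost and 19 gained. The lost calls that are named carry the blocked value beside them. Of the 91 higher genes, 50 were called without each array in turn, 53 under every processing alternative that tested them, and 26 under all of these and without replicate 3 of every treatment. These counts leave aside the fold minimum and the adjusted p of 0.01, and genes among the dimmest 30% were not tested where those were left out. These 26 include SCRL26, AT2G12462, WES1, AT5G65320, AT2G22750, AT4G18450 and AT4G37295, but not PUCHI, IDL4, EXPA20, SWEET8 or MT1B.

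Adjacent pairs with both genes higher numbered 7, against 3 with a fold minimum of 2, 1 without replicate 3 and 5 to 7 without single arrays. Calls of DEX against mock numbered 252, against 130 with just the arrays compared, 85 with a fold minimum of 2, 120 at an adjusted p of 0.01, 62 without replicate 3 and 150 to 210 without single arrays. Calls of the difference between effects numbered 21, against 32 with all rows, 53 with a trended and robust variance, 2 without replicate 3 and 17 to 23 without single arrays. No background level is given, so changes among dim genes such as AT1G03820 and AT1G12665 have no stated floor.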

Other observations

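Some large differences did not pass the test, and these genes were chosen after their values were seen. AT5G52390 had 8.08, 5.55 and 5.02 in DEX+CHX roots, against 3.51, 3.20 and 4.87 in CHX roots (2.36 ± 0.67, limma adjusted p = 0.343). The groups did not overlap, and DEX+CHX replicate 1 lay far above the other arrays. AT2G41810 differed by 1.81 ± 0.36 and also missed the threshold (adjusted p = 0.06). At an unadjusted p below 0.05 there were 872 genes (5.27%).

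One row that names 2 neighbouring genes, AT4G21926 and AT4G21930, was higher by 2.83 in DEX+CHX roots (adjusted p = 9.17e-05 over all rows) and by 0.28 in DEX against mock roots. The row paired with AT4G21930 alone was called as well, 2.06-fold higher (adjusted p = 0.00333), at dim readings of 2.48, 2.81 and 3.03 in DEX+CHX roots and 1.60, 1.92 and 1.69 in CHX roots. A fit on the 6 DEX+CHX and CHX arrays alone ended that call (adjusted p = 0.0568), as did leaving out replicate 3 throughout (0.162).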
